A study of Mus musculus with 18 samples.

Results

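The genes described are 9 that encode structural components of the basement membrane, Col4a1, Col4a2, Lama1, Lama5, Lamb1, Lamc1, Nid1, Hspg2 and Agrn, together with Serpinh1, which encodes the collagen chaperone HSP47. They were taken by name from the deposited expression tables, as a set chosen with earlier results of these data known, and they are 10 of the 49845 gene names in each table. All 10 were listed in all 18 libraries. The cells are IMCD3, a mouse kidney epithelial line derived from inner medullary collecting duct, whose strain label names the SV40 early region transgene Tg(SV40E)bri/7. The 6 groups are Ift140 knockout cells under flow, Ift140 knockout cells kept static, Dync2h1 knockout cells under flow, Dync2h1 knockout cells kept static, wild-type cells under flow and wild-type cells kept static. Flow was a shear of 0.7 dyne/cm2 for 3 h in microslide VI ibiTreat chambers, passage was between 10 and 15 in every group, and each group has 3 libraries of total RNA. The labels give neither the number of clones behind each knockout line nor whether the libraries of a group came from separate cultures, so the p-values measure only the spread between these libraries, which may be technical. Knockout line and genotype cannot be told apart here.

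A basement membrane is the thin sheet of matrix on which a tubule epithelium stands. Laminins, trimers of an alpha, a beta and a gamma chain, assemble into a sheet at the cell surface through integrins and dystroglycan, and type IV collagen forms a cross-linked network that gives the sheet its strength. Nidogens and the heparan sulfate proteoglycans perlecan and agrin connect the networks and hold growth factors. HSP47 resides in the endoplasmic reticulum, where it binds procollagen triple helices and accompanies them towards the Golgi, and in mouse the loss of Serpinh1 disturbs the assembly of type IV collagen in basement membranes. Ift140 and Dync2h1 encode parts of the retrograde transport machinery of the primary cilium, and the study asked how ciliated and cilium-deficient cells respond to flow.

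Values are scaled TPM, the abundance unit in which the authors corrected for gene length and library total, divided here by a factor between 0.889 and 1.13 per library. TPM keeps no sequencing depth, so the depth behind each value is unknown. A gene was called changed in a comparison when its Benjamini-Hochberg adjusted p over all 16718 genes tested was under 0.05 in limma on log2(scaled TPM + 1). A log2 change is on that scale, which understates folds of genes near 0. Of the 10 genes, 9 passed the filter of at least 1 TPM in at least 3 libraries and were tested, and Nid1 was not. Serpinh1, Col4a1, Col4a2 and Lama1 passed through the groups in which they were high while at least 1 group lay near 0, so that a difference between groups had to follow.

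Epithelial identity was read from keratins and cadherins. Group means of Krt8 ran from 1160 to 2160 TPM, of Cdh16, the kidney-specific cadherin, from 228 to 426 TPM and of Pax8 from 36.7 to 73.7 TPM. The defining genes of collecting duct function were near 0, with Aqp2 at 0.0386 TPM or less and Avpr2 at 0.471 TPM or less in every group mean. Fibroblast and mesangial markers, which could carry matrix genes, summed to between 0.757 and 5.98 TPM over 9 genes in all libraries, with Col1a2, Col3a1, Pdgfra, Pdgfrb and Lum at 0.171 TPM or less in every group mean. Endothelial markers summed to 1 TPM or less over 6 genes. Podocyte markers summed to between 10.7 and 21.1 TPM over 5 genes, mostly from Podxl, and leukocyte markers to between 8.94 and 16.7 TPM over 6 genes, mostly from Cd14 and Cd68. Ift140 stood between 6.26 and 8.53 TPM in 5 of the 6 Ift140 knockout libraries, against 15.1 to 19.5 TPM in the wild-type libraries, and Dync2h1 between 7.07 and 15.4 TPM in the Dync2h1 knockout libraries, against 28.1 to 45.4 TPM in the wild-type libraries. The library labelled Ift140 knockout flow replicate 3 stood apart, with 15.4 TPM of Ift140 and the largest deviation of all 18 libraries from its group mean, a root mean square of 0.38 on the log2 scale against 0.223 to 0.328 in the others. Values of the 9 tested genes under flow in that line are given with and without it where it moved them.

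The most abundant of these genes in static wild-type cells was Lama5 at 395 ± 23.1 TPM, followed by Lamb1 at 309.9 ± 27.7 TPM and Agrn at 309 ± 10.0 TPM, which overlapped (SD, n = 3). Serpinh1 came next at 115 ± 6.28 TPM, then Hspg2 at 96.2 ± 6.39 TPM, Lamc1 at 74.1 ± 8.66 TPM, Col4a1 at 52.4 ± 5.87 TPM, Col4a2 at 36.7 ± 2.06 TPM and Lama1 at 13 ± 2.43 TPM, with no overlap between neighbours in this order. Nid1 was last at 0.114 ± 0.0782 TPM. Both knockout lines kept Lama5, Lamb1 and Agrn as the 3 highest. Serpinh1 stood last in static Ift140 knockout cells, where it overlapped Nid1, and Col4a1, Col4a2 and Lama1 lay below 2.7 TPM in every Dync2h1 knockout library.

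**Figure D1:**
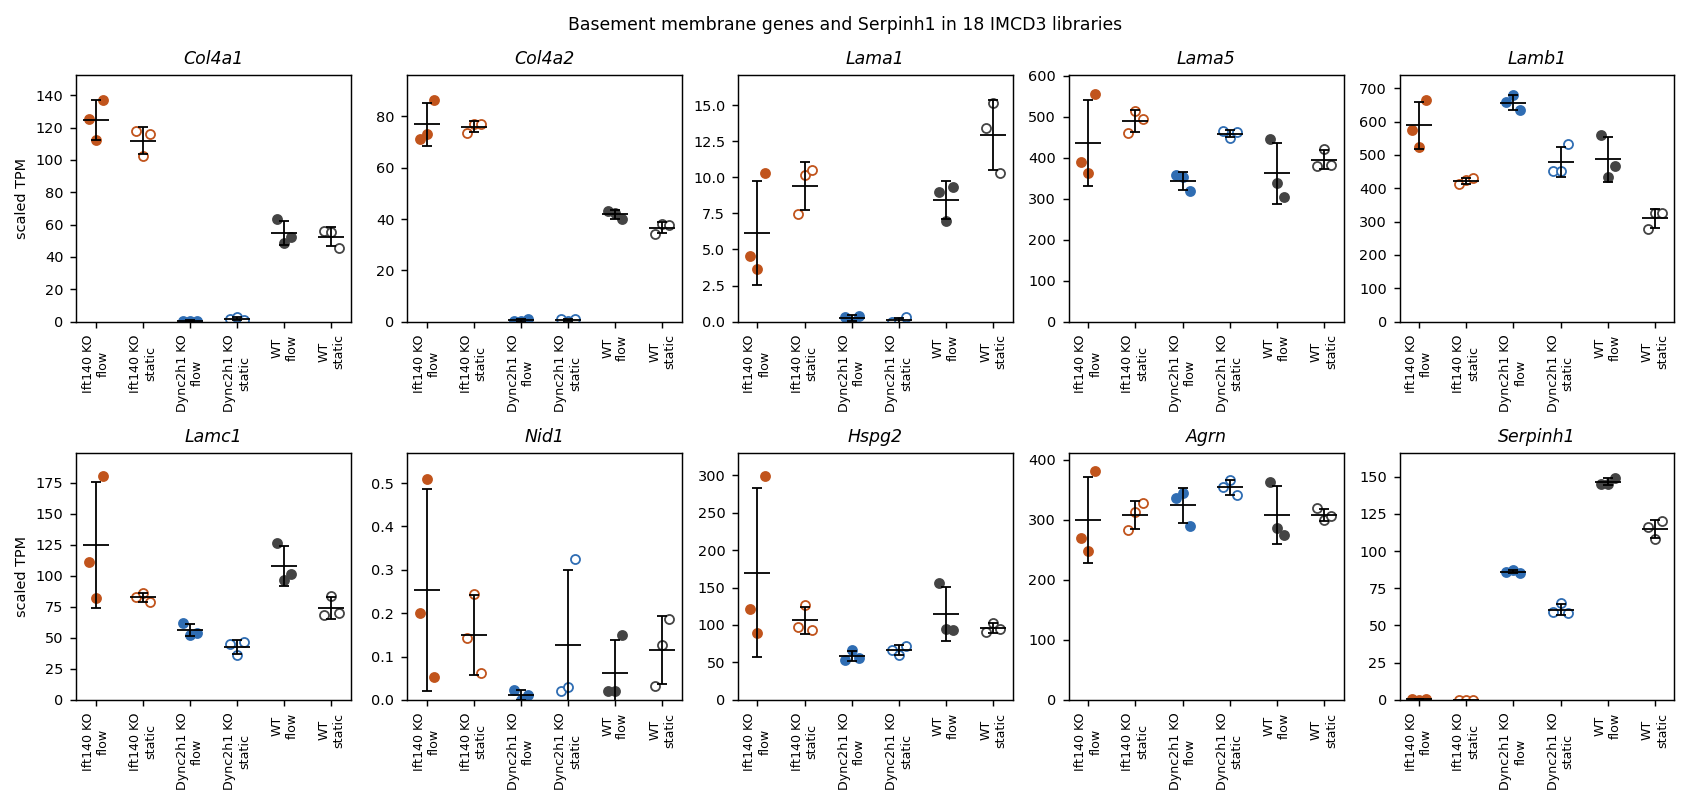
Scaled TPM on a linear axis from 0 for each of the 10 genes, 1 panel per gene, with 1 point per library (filled under flow, open when static) and bars for the mean ± SD of 3 libraries. Serpinh1 lies at the bottom of its panel in both Ift140 knockout groups, and Col4a1, Col4a2 and Lama1 do so in both Dync2h1 knockout groups, while Lama5, Lamb1 and Agrn stand at 248 TPM or more in every library.

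In Ift140 knockout cells 4 of the 9 tested genes differed from wild type when static, where 18% of all genes tested were called (8.96% higher and 9.07% lower), and 3 of 9 did so under flow, where 15.2% were called (7.66% higher and 7.54% lower). Col4a1 and Col4a2 were higher and Serpinh1 lower in both conditions, and Lamb1 was higher when static. In Dync2h1 knockout cells 6 of 9 differed when static, where 27.6% of all genes tested were called (13.5% higher and 14.1% lower), and 7 of 9 under flow, where 30.1% were called (16.1% higher and 14% lower). Col4a1, Col4a2, Lama1, Lamc1 and Serpinh1 were lower in both conditions, Hspg2 was lower under flow, and Lamb1 was higher in both. The higher call of Lamb1 under flow was lost with the deposited and with quantile scaling, which left 6 lower and 0 higher. Deposited scaling moved the median log2 difference of all genes in that comparison to -0.0993, against 0.0135, and the share of calls that were higher to 34.3%, against 53.6%. The counts include Serpinh1 in the Ift140 line and Col4a1, Col4a2 and Lama1 in the Dync2h1 line, near 0 there and high in other groups. For these genes a difference had to follow, so the counts cannot be read as an excess over the share of all genes. The comparisons of both lines share their wild-type libraries.

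**Figure D2:**
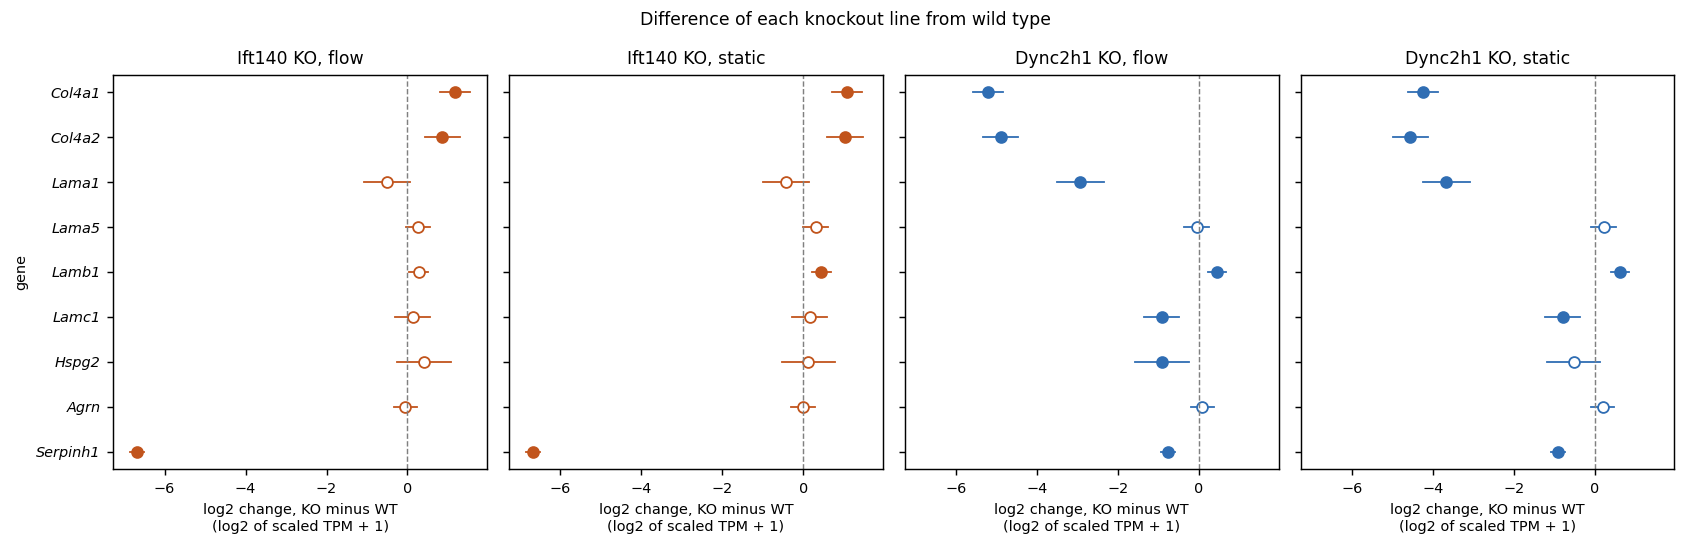
Log2 difference, knockout minus wild type, for the 9 tested genes (points, filled where the adjusted p was under 0.05) with 95% intervals (lines), under flow and when static, for the Ift140 and the Dync2h1 knockout line on a common axis. Serpinh1 lies at -6.68 and -6.67 in the Ift140 line, and Col4a1, Col4a2 and Lama1 lie between -5.22 and -2.93 in the Dync2h1 line.

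Serpinh1 (GRCm38, chromosome 7, 99345376 to 99353239, minus strand) was almost absent from the Ift140 knockout line. When static it read 0.163, 0.108 and 0.124 TPM in Ift140 knockout libraries, against 116, 108 and 120.3 TPM in wild-type libraries. The static log2 difference was -6.67 (SE 0.08, adjusted p = 1.45e-17), and the ratio of means was 872-fold lower in the knockout. The flow values were 0.549, 0.281 and 0.500 TPM in Ift140 knockout libraries, against 145.2, 145 and 149 TPM in wild-type libraries, a log2 difference of -6.68 (SE 0.08, adjusted p = 1.44e-17) and 330-fold in means. The library that stood apart, at 0.500 TPM, was as low as the others of its line, and without it the difference under flow was -6.70 (adjusted p = 4e-16). In bulk libraries fewer cells with the transcript and less transcript per cell cannot be told apart.

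Serpinh1 was also lower in the Dync2h1 knockout line, by a smaller step. Its flow values were 86.1, 87.0 and 85.3 TPM in Dync2h1 knockout libraries, a log2 difference of -0.76 (SE 0.08, adjusted p = 4.38e-06) from wild type. When static it read 59.0, 64.9 and 58.2 TPM, a difference of -0.91 (SE 0.08, adjusted p = 6.99e-07). No Dync2h1 knockout library overlapped the wild-type libraries of its condition.

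The Serpinh1 promoter is shown because this gene was both near 0 in the Ift140 line and higher under flow. It comprises 250 bases directly before the transcript start at chr7:99353240-99353489 on the minus strand (RefSeq, GRCm38.p6), and its capitals mark the match to the GC box GGGCGG.

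Serpinh1: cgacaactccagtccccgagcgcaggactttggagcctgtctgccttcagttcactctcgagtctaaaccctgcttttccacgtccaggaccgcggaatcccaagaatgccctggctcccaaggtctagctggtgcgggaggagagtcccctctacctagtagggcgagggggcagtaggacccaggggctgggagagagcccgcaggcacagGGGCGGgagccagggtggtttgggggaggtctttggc

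The window held 1 GC box, a motif found on either strand in 32.7% of 32851 such windows. The heat shock element cores GAANNTTC and TTCNNGAA, found in 6.69% and 7.17% of windows, did not match in it, nor did TGANTCA (6.75%), the AP-1 site, or CCAAT (33.8%). These letters were searched in these 250 bases only, on both strands.

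The genes next to Serpinh1 were still detected in the Ift140 line, and 2 of 4 were called lower when static, where 9.07% of all genes tested were. These neighbours, the nearest 2 tested protein-coding genes on each side, were chosen after values had been seen. Map6, which encodes a microtubule-associated protein and lies 8.2 kb away, averaged 3.08 TPM in the static knockout and 4.41 TPM in static wild type, a log2 difference of -0.42 (adjusted p = 0.0426). Gdpd5, 28.2 kb away on the other side, averaged 11.2 TPM in static Ift140 knockout cells and 18.8 TPM in wild-type cells, a difference of -0.73 (adjusted p = 0.00387), and it was also lower under flow (-0.60, adjusted p = 0.0158). The ribosomal protein gene Rps3, 124.7 kb away, averaged 550.0 TPM in the knockout and 607 TPM in wild type (-0.15, adjusted p = 0.412), and Dgat2, a triglyceride synthesis gene 162.7 kb away, 1.90 TPM and 3.09 TPM (-0.44, adjusted p = 0.422).

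The type IV collagen genes Col4a1 (chromosome 8, 11198423 to 11312826, minus strand) and Col4a2 (chromosome 8, 11312805 to 11449287, plus strand) encode the alpha 1 and alpha 2 chains, which form the common trimer of most basement membranes. They stand head to head, and their first exons overlap by 22 bases on opposite strands. This stretch is shown at chr8:11312801-11312830 on the plus strand (RefSeq, GRCm38.p6), with the shared bases in capitals, because Col4a1 and Col4a2 were the 2 of the 9 genes that were called in opposite directions in the 2 knockout lines.

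Col4a1 and Col4a2: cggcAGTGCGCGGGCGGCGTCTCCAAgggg

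Both were higher in the Ift140 line. When static Col4a1 read 118, 102.2 and 116 TPM in Ift140 knockout libraries, against 56.0, 55.7 and 45.7 TPM in wild-type libraries, a log2 difference of 1.08 (SE 0.17, adjusted p = 0.000501). Under flow it read 125.5, 112 and 137 TPM in Ift140 knockout libraries, against 63.4, 48.9 and 52.5 TPM in wild-type libraries, a difference of 1.18 (SE 0.17, adjusted p = 0.000299). The groups did not overlap in either condition. Col4a2 read 73.4, 77.2 and 77.1 TPM in static Ift140 knockout libraries, against 34.3, 38.1 and 37.6 TPM in static wild-type libraries, a difference of 1.03 (SE 0.20, adjusted p = 0.00241). Under flow it read 71.1, 73.1 and 86.5 TPM, against 43.1, 42.2 and 40.0 TPM, a difference of 0.86 (SE 0.20, adjusted p = 0.00937). Both calls of Col4a2 were lost with a pseudocount of 0.1 (adjusted p = 0.161 when static and 0.254 under flow) at differences of 1.05 and 0.87. Without the library that stood apart the differences under flow were 1.11 for Col4a1 (adjusted p = 0.0016) and 0.77 for Col4a2 (adjusted p = 0.0351).

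Both were close to absent in the Dync2h1 line. Under flow Col4a1 read 0.652, 0.181 and 0.694 TPM in Dync2h1 knockout libraries, 108-fold below the mean of the wild-type libraries, a log2 difference of -5.22 (SE 0.17, adjusted p = 1.01e-11). When static it read 1.72, 2.67 and 1.23 TPM, 28.0-fold below wild type, a difference of -4.24 (SE 0.17, adjusted p = 1.22e-10). Col4a2 read 0.202, 0.139 and 1.16 TPM under flow (-4.90, SE 0.20, adjusted p = 1.22e-10) and 0.837, 0.192 and 0.865 TPM when static (-4.56, SE 0.20, adjusted p = 2.78e-10). Every Dync2h1 knockout library lay below every library of the other lines for both genes. The ratio of Col4a1 to Col4a2, both per length, lay between 1.16 and 1.77 in the wild-type and Ift140 knockout libraries and between 0.596 and 13.9 in the Dync2h1 knockout libraries, where both levels were near 0. Fibroblast and mesangial markers were lower in that line as well, summing over 9 genes to 0.757 to 1.25 TPM under flow and 0.798 to 1.12 TPM when static in Dync2h1 knockout libraries, against 4.11 to 5.47 TPM and 4.03 to 5.98 TPM in wild-type libraries. Most of that sum came from Col1a1 and Postn, with Lum at 0 throughout, and its part in the result was not tested.

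Genes beside the pair were expressed in the Dync2h1 line, again from neighbours chosen after values had been seen. Rab20, a small GTPase gene 4.2 kb from Col4a2, averaged 13 TPM in the static knockout and 16.5 TPM in the static wild type (-0.32, adjusted p = 0.0329). Irs2, which encodes an insulin receptor substrate and lies 190.0 kb beyond Col4a1, averaged 2.04 TPM in the knockout and 3.2 TPM in wild type (-0.47, adjusted p = 0.0264). Naxd, 48.2 kb from Col4a2, averaged 54.8 TPM in the static knockout and 55.8 TPM in static wild type (-0.02, adjusted p = 0.943). Abhd13, 1206.3 kb beyond Col4a1, averaged 17.9 and 17.4 TPM (0.0475, adjusted p = 0.802). In the Ift140 line Irs2 was called higher, by 0.896 when static (adjusted p = 0.000584) and 1.196 under flow (adjusted p = 5.62e-05). The other neighbours were not called in that line, and no neighbour was called under flow in the Dync2h1 line. The other chains of type IV collagen were retained as well. Col4a3, Col4a4, Col4a5 and Col4a6 averaged 58.1, 54.5, 172 and 36.4 TPM in static Dync2h1 knockout cells, against 69.9, 73.5, 205 and 39.2 TPM in static wild type. Of these 4 chains 0 were called in either knockout line against wild type, at adjusted p from 0.064 to 0.986.

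Lama1 (chromosome 17, 67697259 to 67822647), a laminin alpha chain of embryonic and of some kidney tubule basement membranes, was near 0 in the Dync2h1 line as the Col4a1 and Col4a2 pair was. Under flow it read 0.349, 0 and 0.374 TPM in Dync2h1 knockout libraries, against 9.02, 6.94 and 9.32 TPM in wild-type libraries, a log2 difference of -2.93 (SE 0.27, adjusted p = 9.89e-07). When static it was listed at 0 in 2 Dync2h1 knockout libraries and read 0.289 TPM in the third, against 13.4, 15.1 and 10.3 TPM in wild-type libraries (-3.67, SE 0.27, adjusted p = 9.45e-08). Its neighbour Arhgap28, 20.1 kb away and chosen after values had been seen, averaged 8.05 TPM in the static knockout and 14.7 TPM in static wild type (-0.79, adjusted p = 0.000708). Rab12, 1177.5 kb away, was called lower as well (-0.28, adjusted p = 0.0292). Ptprm, 342.8 kb away (-0.10, adjusted p = 0.789), and Epb41l3, 1253.0 kb away (0.12, adjusted p = 0.328), were not called in that comparison. In the Ift140 line Lama1 was not called against wild type, at -0.50 under flow (adjusted p = 0.231) and -0.42 when static (adjusted p = 0.313). Without the library that stood apart, where Lama1 read 10.3 TPM against 4.52 and 3.67 TPM in the other Ift140 knockout flow libraries, the difference under flow was -0.88 (adjusted p = 0.0111).

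Lama5 (chromosome 2, 180176373 to 180225859), the main laminin alpha chain of mature tubule basement membranes, was not called in either line against wild type. Under flow it read 390.2, 363 and 556 TPM in Ift140 knockout libraries and 357, 354 and 319 TPM in Dync2h1 knockout libraries, against 447, 337.5 and 304 TPM in wild-type libraries. When static it read 460.3, 514 and 495.5 TPM in the Ift140 line and 465.5, 449.5 and 462 TPM in the Dync2h1 line, against 381, 422 and 383 TPM in wild type. The static difference was 0.31 in the Ift140 line (95% interval 0.01 to 0.61, adjusted p = 0.153) and 0.22 in the Dync2h1 line (95% interval -0.09 to 0.52, adjusted p = 0.293). Both were called in fits of those 2 groups alone (adjusted p = 0.0275 and 0.0219). Under flow the difference in the Ift140 line was 0.26 with the library that stood apart (adjusted p = 0.24) and 0.07 without it (adjusted p = 0.752).

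Lamb1 (chromosome 12, 31265234 to 31329644), the beta 1 chain, was higher in both lines when static. It read 412.5, 424 and 431 TPM in static Ift140 knockout libraries and 452, 452 and 532 TPM in static Dync2h1 knockout libraries, against 278, 326 and 325.5 TPM in static wild-type libraries. The log2 difference was 0.45 (SE 0.11, adjusted p = 0.00773) in the Ift140 line and 0.63 (SE 0.11, adjusted p = 0.000375) in the Dync2h1 line. The static Ift140 call was lost with quantile scaling (adjusted p = 0.0535). Under flow Lamb1 read 658, 678 and 633 TPM in Dync2h1 knockout libraries, against 560.4, 432 and 466.5 TPM in wild-type libraries (0.44, SE 0.11, adjusted p = 0.00506). Neither deposited scaling (0.31, adjusted p = 0.141) nor quantile scaling (0.15, adjusted p = 0.504) kept that call. The Ift140 line read 576, 523 and 665 TPM under flow, a difference of 0.28 that was not called (adjusted p = 0.0948) but was without wild-type flow replicate 1 (0.38, adjusted p = 0.0302) or Ift140 knockout flow replicate 2 (0.36, adjusted p = 0.0398). Without the library that stood apart it was 0.18 (adjusted p = 0.287).

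Lamc1 (chromosome 1, 153218922 to 153332786), the gamma 1 chain that pairs with the beta 1 chain in most laminins, was lower in the Dync2h1 line. In flow libraries it stood at 61.9, 52.5 and 54.0 TPM in Dync2h1 knockout libraries, against 126.5, 96.4 and 102 TPM in wild-type libraries (-0.93, SE 0.20, adjusted p = 0.00262). When static it read 44.8, 35.9 and 46.4 TPM, against 68.2, 84.0 and 69.99 TPM (-0.79, SE 0.20, adjusted p = 0.00811). The ratio of Lamb1 to Lamc1, both per length, thus ran from 10.1 to 12.9 in the Dync2h1 knockout libraries, against 3.68 to 6.40 in the Ift140 knockout libraries and 3.88 to 4.65 in the wild-type libraries, and the Dync2h1 knockout values did not overlap the others. In the Ift140 line Lamc1 was not called, at 0.14 under flow (95% interval -0.30 to 0.57) and 0.16 when static (95% interval -0.27 to 0.59). The difference under flow turned to -0.17 (adjusted p = 0.519) without the library that stood apart, where Lamc1 read 180.5 TPM, against 111 and 81.8 TPM in the other Ift140 knockout flow libraries.

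Hspg2 (chromosome 4, 137468769 to 137570630), which encodes perlecan, was lower in the Dync2h1 line under flow, at 53.3, 66.3 and 56.5 TPM in Dync2h1 knockout libraries, against 156, 94.8 and 93.0 TPM in wild-type libraries. The log2 difference was -0.92 (SE 0.31, adjusted p = 0.0359). It rested in part on wild-type flow replicate 1, without which it was -0.68 (adjusted p = 0.16), and it was also lost without Dync2h1 knockout flow replicate 1 (adjusted p = 0.101), 2 (adjusted p = 0.0532) or 3 (adjusted p = 0.0844) and with no filter (adjusted p = 0.0774). When static the Dync2h1 knockout libraries read 67.2, 60.1 and 72.4 TPM, against 91.0, 103 and 94.4 TPM in wild-type libraries, without overlap and without a call (-0.53, adjusted p = 0.236) except in the fit of those 2 groups alone (adjusted p = 0.0033). In the Ift140 line the library that stood apart read 299 TPM of Hspg2 under flow, against 121 and 89.7 TPM in the other flow libraries of that line. The difference from wild type was 0.41 with it and -0.10 without it, neither called (adjusted p = 0.413 and 0.814).

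Agrn (chromosome 4, 156165290 to 156197488), which encodes agrin, was the steadiest of the abundant genes. Its 18 libraries lay between 248 and 381 TPM. The log2 difference from wild type was -0.06 under flow (95% interval -0.34 to 0.22) and -0.01 when static (95% interval -0.29 to 0.28) in the Ift140 line, and 0.08 under flow (95% interval -0.21 to 0.37) and 0.20 when static (95% interval -0.09 to 0.48) in the Dync2h1 line. The last was called in the fit of those 2 groups alone (adjusted p = 0.0212), and the first was -0.24 (adjusted p = 0.164) without the library that stood apart. Nid1 (chromosome 13, 13437551 to 13512269), which encodes nidogen 1, did not exceed 0.51 TPM in any library and was listed at 0 in 1 Dync2h1 knockout flow library. Its relative Nid2, which encodes nidogen 2, averaged 55.6 TPM in static Ift140 knockout cells, 3.73 TPM in static Dync2h1 knockout cells and 30.9 TPM in their wild-type counterparts, with log2 differences from wild type of 0.83 (SE 0.12, adjusted p = 0.000227) and -2.76 (SE 0.12, adjusted p = 2.65e-10).

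Flow against static asked which of these genes respond to 3 h of shear in each line. In Ift140 knockout cells 2 of the 9 tested genes were called, both higher, where 17.5% of all genes tested were called (9.18% higher and 8.29% lower). In Dync2h1 knockout cells 3 of 9 were called, 2 higher and 1 lower, where 19% of all genes were called (10.8% higher and 8.13% lower). In wild-type cells 2 of 9 were called, both higher, where 20.5% of all genes were called (10.2% higher and 10.3% lower). The share of these genes called was therefore near that of all genes in wild-type and Ift140 knockout cells. With deposited and with quantile scaling the Dync2h1 calls were 1 higher and 2 lower, and with deposited scaling 32% of all calls in that comparison were higher, against 57.1%. Lamb1 was called higher in each of the 3 lines. Serpinh1 was called higher in Dync2h1 knockout and wild-type cells, and also in Ift140 knockout cells, where it did not exceed 0.549 TPM in any library and entered the test through the other lines.

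**Figure D3:**
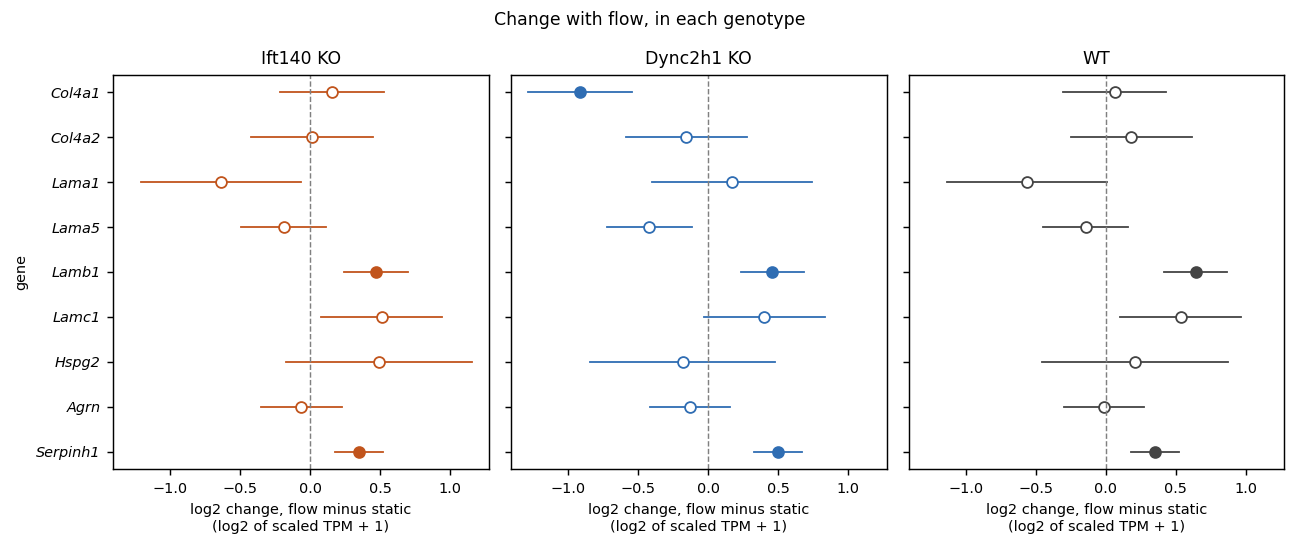
Log2 change, flow minus static, for the 9 tested genes (points, filled where the adjusted p was under 0.05) with 95% intervals (lines), in Ift140 knockout, Dync2h1 knockout and wild-type cells on a common axis. Lamb1 and Serpinh1 are filled and above 0 in all 3 panels, with Serpinh1 at 0.549 TPM or less in Ift140 knockout cells, and Col4a1 is filled and below 0 in Dync2h1 knockout cells, where its level was near 0.

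Lamb1 rose under flow in each line. In wild-type cells it read 560.4, 432 and 466.5 TPM under flow, against 278, 326 and 325.5 TPM when static, a log2 change of 0.64 (SE 0.11, adjusted p = 0.000446) and 1.57-fold in means, without overlap. In Ift140 knockout cells the values given above amount to 1.39-fold, a change of 0.47 (SE 0.11, adjusted p = 0.00608), and without the library that stood apart to 0.38 (adjusted p = 0.024). In Dync2h1 knockout cells they amount to 1.37-fold, a change of 0.46 (SE 0.11, adjusted p = 0.00642). The call in wild-type cells held under all 15 alternatives tried. The Ift140 call was lost with deposited scaling (adjusted p = 0.0556), quantile scaling (adjusted p = 0.0509) and the fit of those 2 groups alone (adjusted p = 0.0728), and the Dync2h1 call with deposited (0.34, adjusted p = 0.139) and quantile scaling (0.25, adjusted p = 0.289). The differences between responses were -0.17 for Ift140 knockout minus wild type (95% interval -0.49 to 0.14, adjusted p = 0.85) and -0.18 for Dync2h1 knockout minus wild type (95% interval -0.50 to 0.13, adjusted p = 0.788).

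The Lamb1 promoter is shown because this gene was called for flow in every line. It comprises 191 bases directly before the gene start at chr12:31265043-31265233 on the plus strand (RefSeq, GRCm38.p6), and its capitals mark the 2 matches to the GC box, here on the opposite strand and so read as CCGCCC.

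Lamb1: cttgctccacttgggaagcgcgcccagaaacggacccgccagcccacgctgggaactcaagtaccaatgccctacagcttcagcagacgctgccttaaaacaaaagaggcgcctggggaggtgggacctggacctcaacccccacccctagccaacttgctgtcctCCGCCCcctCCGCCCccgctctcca

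Neither heat shock core nor the AP-1 site matched in the 250-base windows of the 8 genes with a promoter entry, which were all but Lama1 and Lamc1. The motifs were chosen after values had been seen.

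Serpinh1 rose under flow in Dync2h1 knockout and wild-type cells. In Dync2h1 knockout cells the change was 0.50 (SE 0.08, adjusted p = 0.000408), 1.42-fold in means, and the flow libraries did not overlap the static ones. In wild-type cells it was 0.35 (SE 0.08, adjusted p = 0.0053), 1.28-fold in means, also without overlap, and this call was lost with a pseudocount of 0.1 (adjusted p = 0.121) at the same size. In Ift140 knockout cells the change of 0.35 (SE 0.08, adjusted p = 0.00724) was one between 0.443 and 0.132 TPM on average, and it was lost with a pseudocount of 5 (0.08, adjusted p = 0.363) and not testable in the fit of those 2 groups alone, where the gene failed the filter. Such levels do not support a response of Serpinh1 in that line. The difference between responses was 0.15 for Dync2h1 knockout minus wild type (95% interval -0.09 to 0.39, adjusted p = 0.773).

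Heat shock genes rose under flow in all 3 lines, and Serpinh1 did so in Dync2h1 knockout and wild-type cells. Of a list of 15, most of them cytosolic chaperones, with the mitochondrial chaperonins Hspd1 and Hspe1 and the transcription factor Hsf1, 14 were called higher in Ift140 knockout cells, 14 in Dync2h1 knockout cells and 11 in wild-type cells, and 0 lower, with median log2 changes of 0.85, 0.97 and 0.50, against 0.01, 0.02 and -0.01 over all genes. Of all genes tested 9.18%, 10.8% and 10.2% were called higher. Hspa1b, an inducible HSP70 gene, averaged 370 TPM under flow and 48.8 TPM when static in Dync2h1 knockout cells (2.90, SE 0.09, adjusted p = 1.28e-11), and 80.5 TPM under flow and 27.2 TPM when static in wild-type cells (1.53, SE 0.09, adjusted p = 1.67e-08). In Ift140 knockout cells, where Serpinh1 was near 0, Hspa1b averaged 632 TPM under flow and 69.6 TPM when static (3.17, SE 0.09, adjusted p = 5.03e-12). Dnajb1, an HSP40 gene, rose by 1.3 in Ift140 knockout, 1.32 in Dync2h1 knockout and 0.72 in wild-type cells. Against wild type under flow, 14 of the 15 were higher and 1 lower in each knockout line, whereas Serpinh1 was lower in both (-6.68 and -0.76). Of all genes tested 7.66% were higher and 7.54% lower in the Ift140 line, and 16.1% and 14% in the Dync2h1 line. The part of the heat shock genes in the change of Serpinh1 was not tested.

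Tests of the difference between responses by limma called 0 of the 9 genes for Ift140 knockout minus wild type, where 0.209% of all genes were called, 0 for Dync2h1 knockout minus wild type, where 0.479% were called, and 0 for Dync2h1 knockout minus Ift140 knockout, where 0.108% were called. At an unadjusted p under 0.05 the counts were 0, 1 and 2. The 1 gene was Col4a1, at -0.98 (95% interval -1.50 to -0.46, adjusted p = 0.119), and Lama1 joined it in the last comparison at 0.81 (adjusted p = 0.541). In Dync2h1 knockout cells Col4a1 averaged 0.509 TPM under flow and 1.87 TPM when static, and Lama1 0.241 and 0.0962 TPM. Such levels do not support a difference in response.

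The other responses to flow were near 0 in level, not called, or called under some settings only. Lamc1 was 0.51 higher in Ift140 knockout cells (adjusted p = 0.101), 0.40 in Dync2h1 knockout cells (adjusted p = 0.193) and 0.54 in wild-type cells (adjusted p = 0.0767), none of them called. The wild-type value was called in the fit of those 2 groups alone (adjusted p = 0.0141), and the Ift140 value without Ift140 knockout flow replicate 2 (0.77, adjusted p = 0.00763), while it was 0.21 without replicate 3 (adjusted p = 0.4). Lama1 differed by -0.64 in Ift140 knockout cells (adjusted p = 0.123) by -0.56 in wild-type cells (adjusted p = 0.166, and 0.0495 in the fit of those 2 groups alone), and by -1.02 in Ift140 knockout cells without the library that stood apart (adjusted p = 0.00388). Lama5 differed by -0.42 in Dync2h1 knockout cells without overlap (adjusted p = 0.0517). Deposited scaling (adjusted p = 0.0476), quantile scaling (adjusted p = 0.0403) and a filter of 5 TPM (adjusted p = 0.0399) brought it past the threshold. So did the fit of those 2 groups alone (-0.45, adjusted p = 0.003). In Ift140 knockout cells without the library that stood apart Lama5 differed by -0.38 (adjusted p = 0.0431). Col4a1 fell by 0.92 in Dync2h1 knockout cells (SE 0.17, adjusted p = 0.0016), a change between 0.509 and 1.87 TPM on average, which was lost with a pseudocount of 5 (adjusted p = 0.0594). Col4a2, Hspg2 and Agrn were not called for flow in any line. In Ift140 knockout cells the change of Hspg2 was 0.49 with the library that stood apart (adjusted p = 0.324) and -0.01 without it (adjusted p = 0.978), and that of Agrn was -0.06 (adjusted p = 0.809) and -0.25 (adjusted p = 0.137).

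The wider set of basement membrane components was read from a list of 30 other genes, of which 22 were tested. In Ift140 knockout cells 5 were higher and 7 lower than in wild type when static, with a median of -0.05, and 5 higher and 6 lower under flow. Of all genes tested 8.96% were higher and 9.07% lower there when static, and 7.66% and 7.54% under flow. Lama3 and Lamb3, which encode an alpha and a beta chain of epithelial laminins, were lower in static Ift140 knockout cells, at -0.99 (adjusted p = 2e-06) and -0.27 (adjusted p = 0.0274), and Ntn4, a laminin-related netrin, was higher at 0.95 (adjusted p = 1.08e-05). In static Dync2h1 knockout cells, where 13.5% of all genes tested were higher and 14.1% lower, 3 were higher and 7 lower, with a median of -0.19. Under flow, where 16.1% and 14% of all genes were, 4 of the list were higher and 8 lower. Besides Nid2, the lower ones included Sparc, a collagen-binding matricellular protein gene, at -1.04 (adjusted p = 5.16e-05), and Fras1, which encodes a protein of the epithelial basement membrane, at -1.93 (adjusted p = 0.000164). Nid2, Fras1 and Ntn4 were thus called in the directions of Col4a1 and Col4a2 when static, with Fras1 at 1.56 in the Ift140 line (adjusted p = 0.00183) and Ntn4 at -0.63 in the Dync2h1 line (adjusted p = 0.00022). Lama3 and Lamb3 were called higher in static Dync2h1 knockout cells, at 0.54 (adjusted p = 0.000258) and 0.23 (adjusted p = 0.0393). The median over all genes tested was -0.004 in the Ift140 and -0.007 in the Dync2h1 static comparison. The counts of lower genes include Lama4, at 0.0685 TPM or less in every knockout group mean, and Hmcn1, at 0.248 TPM in static Ift140 knockout cells. These passed the filter through other groups, so that a difference had to follow.

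Genes for the folding, modification and secretion of collagen, a list of 24 with 22 tested, were mostly lower in the Dync2h1 line where they were called, with 0 higher and 9 lower when static and 3 higher and 6 lower under flow. Of all genes tested 13.5% were higher and 14.1% lower when static, and 16.1% and 14% under flow. The lower ones included Rcn3, at 0.361 TPM when static and 0 under flow, and Fkbp14, at 0.679 TPM under flow. At these levels they passed the filter through other groups, so that a difference had to follow. Sec24d and Mia3, which encode a COPII coat protein and the procollagen export factor TANGO1, differed by -1.34 (SE 0.12, adjusted p = 1.18e-06) and -1.11 (SE 0.14, adjusted p = 2.01e-05) when static. Fkbp14, a prolyl isomerase of the endoplasmic reticulum, averaged 1.01 TPM in the static knockout and 6.59 TPM in static wild type (-1.91, adjusted p = 2.11e-05). In the Ift140 line, where Serpinh1 was near 0, 3 were higher and 3 lower when static, and 4 were higher and 0 lower under flow. There 8.96% of all genes tested were higher and 9.07% lower when static, and 7.66% and 7.54% under flow. Fkbp10, which encodes another collagen chaperone, averaged 103.5 TPM in the static knockout and 56.2 TPM in static wild type (0.87, SE 0.09, adjusted p = 6.28e-06), and P4ha2, a prolyl 4-hydroxylase subunit, was higher by 0.54 (adjusted p = 0.00862). Under flow P4ha1 and P4ha2 fell in all 3 lines, in wild-type cells by 0.85 (SE 0.12, adjusted p = 8.29e-05) and 0.75 (SE 0.13, adjusted p = 0.00067).

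**Figure D4:**
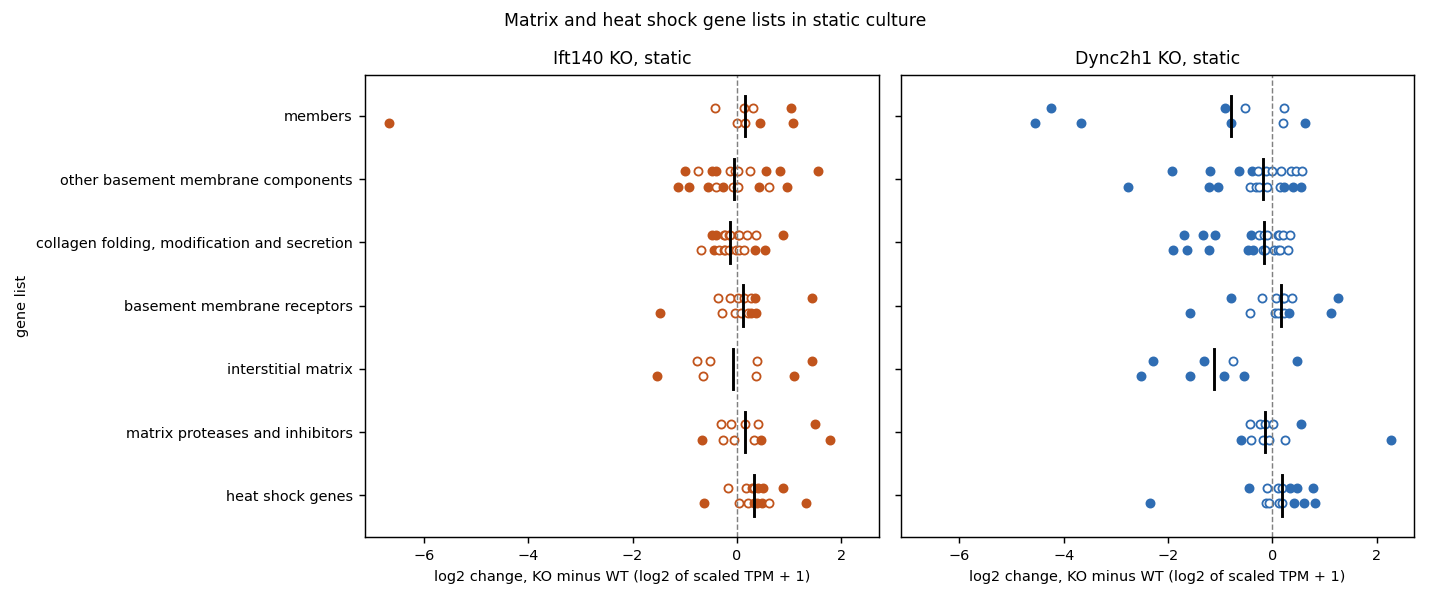
Log2 difference, knockout minus wild type in static culture, for the 9 tested members and each gene list (1 point per gene, filled where the adjusted p was under 0.05, with a black bar at the list's median), in the Ift140 and the Dync2h1 knockout line on a common axis. Serpinh1 is the point at -6.67 in the Ift140 panel, and the interstitial matrix list has its median at -1.12 in the Dync2h1 panel.

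Receptors for the basement membrane, a list of 14 that were all tested, were called in part. In the Ift140 line 4 were higher and 1 lower when static, where 8.96% and 9.07% of all genes tested were. Itga2, an alpha subunit of a collagen-binding integrin, averaged 10.4 TPM in the static knockout and 30.9 TPM in static wild type (-1.48, SE 0.16, adjusted p = 1.46e-05). In the Dync2h1 line 3 were higher and 2 lower when static, where 13.5% and 14.1% of all genes tested were. Itga1, another collagen-binding integrin subunit, was lower by -1.58 (SE 0.13, adjusted p = 4.47e-07), and Itga3, a laminin-binding subunit, was higher by 1.13 (SE 0.11, adjusted p = 1.48e-06). Itga7, also laminin-binding, was higher in both lines when static, by 1.45 in the Ift140 line and 1.26 in the Dync2h1 line (adjusted p = 8.72e-05 and 0.000135). Under flow Itga3 rose in wild-type cells by 0.54 (SE 0.11, adjusted p = 0.00201) and in Ift140 knockout cells by 0.55 (SE 0.11, adjusted p = 0.00218), beside Sdc4, a syndecan gene, which rose in all 3 lines, while the collagen receptor gene Ddr1 fell in all 3.

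Likeness of pattern was measured as Pearson's r of log2(scaled TPM + 1) over the 18 libraries, among 9886 genes with a mean of at least 5 TPM. The 5 genes nearest to Serpinh1 were Asph (0.988), Vcam1 (0.966), Paqr5 (0.963), Fuom (0.955) and Tmed3 (0.952). Asph, which encodes an aspartate beta-hydroxylase of the endoplasmic reticulum, averaged 2.44 TPM in static Ift140 knockout cells, 31 TPM in the static Dync2h1 line and 39.8 TPM in static wild type. The 5 nearest to Col4a1 were Nid2 (0.997), Col4a2 (0.989), Adgra2 (0.985), Cbs (0.984) and Igfbp2 (0.984). Igfbp2, a binding protein of insulin-like growth factors, averaged 88.9 TPM in static Ift140 knockout cells, 0.240 TPM in the static Dync2h1 line and 55.9 TPM in static wild type, and Adgra2, an adhesion receptor gene, 56.6, 5.19 and 43.7 TPM. Lama1 correlated with Col4a1 at 0.91 and Lamc1 at 0.79, whereas Serpinh1 did so at -0.56 and Agrn at -0.40. These coefficients are descriptions, and the 18 libraries behind them fall into 3 lines of 6 that share a line each.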

How the data were processed

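RNA sequencing of 18 libraries was quantified by the submitters, whose processing notes name FastQC 0.11.5, Bowtie2 2.1.0, RSEM 1.2.31 and the builds mm10 and GRCm38.p5, with no settings. The values the authors deposited are TPM, and a leading total row was left out. TPM is not a count, so limma 3.58.1 (R 4.3.3) was run on log2(scaled TPM + 1). Scaling was an unweighted trimmed mean of log ratios (30% of ratios and 5% of abundances trimmed) over the genes that reached 1 TPM in 3 or more libraries. The fit held 6 group means, 12 residual degrees of freedom and empirical Bayes moderation with a trend, with Benjamini-Hochberg adjustment over 16718 genes. The smallest p an exact test of 3 against 3 allows is 0.1, so lower ones rest on the model. The method was tested on simulated data. All 10 members were named, with up to 4 called genes per list and comparison by smallest p and the 5 genes most like Serpinh1 and Col4a1. Outside that rule, Fras1, Lamb3 and Hmcn1 were named for the static Ift140 comparison. Ntn4, Lama3 and Lamb3 were so named for the static Dync2h1 comparison, and Col4a3, Col4a4, Col4a5 and Col4a6 for both lines. The members and lists were chosen with earlier results of these data known. Coordinates are GENCODE vM21 on GRCm38. Alternatives changed the scaling, pseudocount, filter, trend, groups in the fit, replicate block and libraries.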

Additional observations from a re-analysis of the deposited data

Results flagged for a closer look

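No member had a response to flow that differed between lines past the threshold, but genes of the lists read beside them did, by the limma test of the difference itself. Of the 15 heat shock genes, 3 did so between Ift140 knockout and wild-type cells and 7 between Dync2h1 knockout and wild-type cells, of which up to 4 with the smallest p are given. Of all genes tested 0.209% and 0.479% did so. Hspa1a responded more in Ift140 knockout than in wild-type cells, by 2.42 on the log2 scale (adjusted p = 1.38e-05), and more in Dync2h1 knockout than in wild-type cells, by 1.05 (adjusted p = 0.0155), with a difference of -1.37 between the Dync2h1 and Ift140 lines (adjusted p = 0.00982). Its static group means were 1.02 TPM or less, against 37.9, 11.1 and 5.28 TPM under flow in Ift140 knockout, Dync2h1 knockout and wild-type cells. Hspa1a thus passed the filter largely through the flow groups, and the size of its differences depends on the pseudocount. Hspa1b responded more by 1.64 in the Ift140 line (adjusted p = 1.38e-05) and by 1.37 in the Dync2h1 line (adjusted p = 5.64e-05). Dnajb1 responded more by 0.59 in the Ift140 line (adjusted p = 0.0398) and by 0.61 in the Dync2h1 line (adjusted p = 0.0224), and Dnaja1 by 0.79 in the Dync2h1 line (adjusted p = 0.0248). Thbs1, which encodes the matricellular protein thrombospondin 1, responded less in Dync2h1 knockout than in wild-type cells, with a difference of -0.75 (adjusted p = 0.0195). Adamts1, a secreted metalloproteinase gene, had a difference of 0.59 (adjusted p = 0.0184), being higher under flow in Dync2h1 knockout cells (0.28) and lower in wild-type cells (-0.31).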

How the results depend on the processing

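No called member reversed under any alternative. The number of members called for flow in wild-type cells was 1 with a pseudocount of 0.1 and 4 in a fit of only the groups compared, against 2. For flow in Ift140 knockout cells it was 1 with deposited scaling, 1 with quantile scaling, 1 with a pseudocount of 5 and 0 with only the groups compared, against 2. In that last fit Lamb1 was not called and Serpinh1 failed the filter and was not tested. Leaving out each library in turn gave 2 to 4 there, 4 without Ift140 knockout flow replicate 3, and elsewhere 2 to 2 for flow in wild type, 3 to 3 for flow in the Dync2h1 line, 4 to 4 and 3 to 4 for the Ift140 line against wild type when static and under flow, 6 to 6 and 6 to 7 for the Dync2h1 line, and 0 to 0 for the differences. With a lone pair left in a group, that pair was assumed to vary like the other groups. The fit of only the groups compared added Lama5 (adjusted p = 0.0219), Hspg2 (adjusted p = 0.0033) and Agrn (adjusted p = 0.0212) for the static Dync2h1 comparison. All tested members were then called there. For the static Ift140 comparison that fit added Lama5 (adjusted p = 0.0275). Over all genes, the calls for flow in Ift140 knockout cells were 684 with only the groups compared, against 2921, and for the Ift140 line against wild type under flow 682, against 2540. Calls for the differences of response ranged from 6 to 56 (Ift140 minus wild type, 35 as reported), from 42 to 157 (Dync2h1 minus wild type, 80) and from 3 to 27 (Dync2h1 minus Ift140, 18). With deposited scaling 21.1% of the first and 20.6% of the second were higher, against 31.4% and 36.2%, and with quantile scaling 41.2% of the last, against 55.6%. The cause was not tested. Same-numbered residuals correlated at -0.18 to 0.1, so no strong effect shared by replicate number was seen. That does not settle whether the libraries were paired. With the replicate block the member counts were 2, 2 and 3 for flow in wild type, Ift140 knockout and Dync2h1 knockout cells, 4 and 3 for the Ift140 line, 6 and 7 for the Dync2h1 line and 0 for each difference, and all-gene calls for the differences were 22, 57 and 4. TPM keeps no depth, so levels under about 1 TPM, as for Serpinh1 in the Ift140 line, have unknown counting error.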

Other observations

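Interstitial matrix genes, a list of 18 with 8 tested, were mostly lower in the Dync2h1 line. Under flow 0 were higher and 8 lower than in wild type, with a median log2 difference of -1.22, and when static 1 was higher and 6 were lower, with a median of -1.12. Of all genes tested 16.1% were higher and 14% lower under flow, and 13.5% and 14.1% when static. Col1a1, Col5a1, Col6a2 and Postn averaged 0.394 TPM or less in Dync2h1 knockout cells under flow and 0.559 TPM or less when static. These genes, and Col6a1 under flow, passed the filter through other groups, so that a difference between groups had to follow. Col6a1, a type VI collagen chain, averaged 0.855 TPM in Dync2h1 knockout cells under flow and 12.3 TPM in wild-type cells under flow (-2.85, SE 0.24, adjusted p = 4.79e-07), and Col5a1, a type V collagen chain, 0.125 TPM and 6.26 TPM (-2.69, SE 0.24, adjusted p = 6.02e-07). In the Ift140 line 2 were higher and 1 lower in each condition. There 8.96% of all genes tested were higher and 9.07% lower when static, and 7.66% and 7.54% under flow. Tnc, the tenascin C gene, averaged 94.9 TPM in static Ift140 knockout cells and 34.4 TPM in static wild-type cells (1.44, SE 0.14, adjusted p = 3.98e-06), and Col5a1 0.876 TPM and 4.34 TPM (-1.52, SE 0.24, adjusted p = 0.000365). Under flow Thbs1 rose in all 3 lines, by 0.78 in Ift140 knockout, 0.43 in Dync2h1 knockout and 1.18 in wild-type cells.

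Among matrix proteases and their inhibitors, 18 listed and 11 tested, Timp3, an inhibitor that is held in the matrix, was higher in both knockout lines. It averaged 24.1 TPM in static Ift140 knockout cells, 42.1 TPM in static Dync2h1 knockout cells and 8.32 TPM in static wild-type cells, with differences of 1.5 (SE 0.17, adjusted p = 2.35e-05) and 2.27 (SE 0.17, adjusted p = 1.25e-07) from wild type. Mmp15, a membrane-bound metalloproteinase gene, was higher as well when static, by 0.47 (adjusted p = 0.00651) in the Ift140 line and 0.56 (adjusted p = 0.00111) in the Dync2h1 line.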
